A study of Schmidtea mediterranea with 8 samples.

Results

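Cephalic ganglia of the planarian *Schmidtea mediterranea* were compared after RNAi of *hedgehog* (*hh*) and after control RNAi, with 2 libraries in each group and 4 of the 8 libraries of the series in all. Every contig of the transcriptome assembly was followed in this comparison, and the 12153 of 38634 contigs that averaged at least 100 normalized reads over the groups were tested. The animals were of the sexual strain S2F1L3F2 and ate bacteria carrying double-stranded RNA 12 times, 4 days apart. The dsRNA of the control group matched *unc-22*, a *C. elegans* gene that planarians lack, and that of the other group matched *hh*. The ganglia were dissected from large animals after a short fixation in acid, from beside gut tissue that overlies them, and 0.2 µg of RNA went into each library. The methods state that libraries were made in duplicate but not whether both came from separate animals, so the spread within a group may be technical, and p-values measure only that spread. The same control libraries also served a comparison with *ptc(RNAi)*. Its values are given beside those of *hh(RNAi)* for some of the named contigs, and their absence elsewhere does not mean that there was no difference. In addition, 2 libraries of control head fragments (asexual strain CIW4, 6 feedings, 1.0 µg of RNA) give the head level of each contig. In these bulk libraries fewer cells of a type and less RNA per cell cannot be told apart.

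Hedgehog is a secreted ligand that binds the receptor Patched. Without ligand, Patched holds the membrane protein Smoothened inactive, and Suppressor of fused restrains the Gli transcription factors. Ligand binding frees Smoothened, which lets Gli proteins activate their targets, and *patched* itself is a common target in other animals. In planarians *hh* is expressed by neurons of the medial ganglia. *if-1* (*intermediate filament-1*) and *cali* (*calamari*) are expressed in neuropil cells that the study proposes are glia. These non-neuronal cells have processes that lie among the synapses. Most glia outside the neuropil express neither gene in control animals, the study reports.

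Between 11479783 and 12368424 reads lay on contigs in each of the 4 libraries. The libraries of a group carry no replicate number in the deposited means and are called a and b here. The dissected tissue carried neuronal transcripts above the head level: 51 of the 60 tested contigs of a neuronal panel were more than 2-fold higher in control ganglia than in control heads, while 7 of the 11 tested markers of other tissues were more than 2-fold lower. Strain, number of feedings and RNA input differ between ganglia and heads. The *hh(RNAi)* libraries were less alike than the controls. The log2 difference between the libraries of a pair had an SD over contigs of 0.525 in *hh(RNAi)* and of 0.331 in the control, and it exceeded 2-fold in 521 and in 199 contigs. Library b of *hh(RNAi)* stood apart: across contigs its Pearson correlation with the other 3 libraries lay between 0.939 and 0.954, while the other 3 correlated at 0.962 to 0.978 with each other. These are correlations across contigs of the same libraries and not across replicates.

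Against this spread, and with 2 libraries in each group, few contigs were called by limma. A contig that was not called may still have differed. Limma with Benjamini-Hochberg adjustment called 1 contig lower (0.00823% of those tested) and 0 higher (0%), where a call needs more than 2-fold and a limma adjusted p below 0.05. An unadjusted p under 0.05 was reached by 276 contigs (2.27%), with 234 lower in *hh(RNAi)* (1.93%) and 42 higher (0.346%). The edgeR quasi-likelihood test called 2 lower (0.0165%) and 0 higher, and DESeq2 called 39 lower (0.321%) and 0 higher. By the deposited group means 133 contigs (1.09%) were more than 2-fold lower and 51 (0.42%) more than 2-fold higher. By the log2 fold change of the limma fit, which averages libraries on the log scale, 156 were lower and 28 higher by more than 2-fold. The groups did not overlap, with *hh(RNAi)* the lower, in 1914 contigs (15.7%), and with *hh(RNAi)* the higher in 1304 (10.7%). Of the 133 lower contigs 111 did not overlap between groups (0.913% of those tested), against 17 of the 51 higher ones (0.14%). In 54 of the 133 the control libraries lay more than 2-fold apart, and in 36 the *hh(RNAi)* libraries did. For the 51 higher ones these counts were 8 and 47, and for all tested contigs 199 and 521. In *ptc(RNAi)*, with the same controls, 79 of the 133 lay below 0 and 54 above. Without library a of *hh(RNAi)* the group means put 248 contigs lower and 111 higher, and without its library b 115 and 89. Over all tested contigs the median log2 fold change was -0.02.

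**Figure D1:**
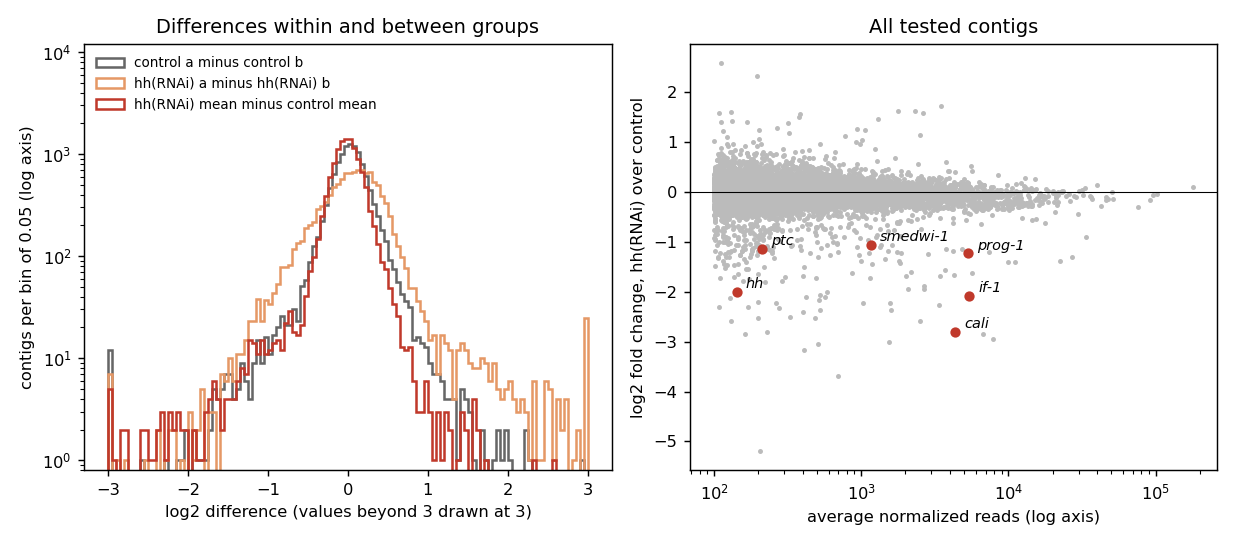
Left: number of tested contigs (log axis) by log2 difference, between the control libraries (grey), between the *hh(RNAi)* libraries (orange) and between the group means (red). Right: log2 fold change of *hh(RNAi)* over control against average normalized reads (log axis) for every tested contig, with 6 named contigs in red. The orange outline is the widest, with an SD of 0.525. The red values are limma log2 fold changes, of which more lie beyond 2-fold below 0 (156) than above (28).

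The ligand itself was examined first. Its contig (dd_Smed_v4_41965_0_1) held 205 and 245 reads in the control libraries and 75 and 42 in *hh(RNAi)*, which is 211 and 242 normalized reads against 80.0 and 38.5. The groups did not overlap, and 26.1% of the control mean was left. The log2 fold change was -2.01, with a 95% interval of -2.97 to -1.05 from limma. Limma gave *hh* an adjusted p of 1.0 and DESeq2 one of 0.00327, so the call depends on the tool, although the order of the libraries follows their labels. In *ptc(RNAi)* the contig held 189 and 183 normalized reads, and its log2 fold change was -0.28.

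The receptor gene *ptc* is named in the study's tables as dd_Smed_v4_7063_0_2, which held 293 and 286 normalized reads in the control and 110 and 156 in *hh(RNAi)*. A second contig of the same component of the assembly, dd_Smed_v4_7063_0_1, held 296 and 247 against 111 and 150. The *hh(RNAi)* libraries lay below the controls for both, with log2 fold changes of -1.14 and -1.06 and of -1.11 for their summed reads. Contigs of 1 component can share sequence and each read was placed once, so the division between them is uncertain and the sum is given for that reason. The 95% interval for dd_Smed_v4_7063_0_2 was -1.69 to -0.60, and neither limma (adjusted p = 1.0) nor DESeq2 (adjusted p = 0.0682) called it. The *ptc(RNAi)* libraries, in which the dsRNA matched this gene, held 198 and 189 normalized reads as scaled in their own table, a log2 fold change of -0.58.

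Downstream of the receptor the levels were close to those of the control. *smo*, which encodes the signal transducer Smoothened, had 595 and 658 normalized reads in the control and 542 and 739 in *hh(RNAi)*. *sufu*, the inhibitor of Gli, had 202 and 190 against 207 and 186. *gli-1*, a transcription factor of the pathway, had 138 and 139 against 128 and 147. For each of these contigs both control libraries lay between the *hh(RNAi)* libraries. The log2 fold changes were 0.02 for *smo* (95% interval -0.46 to 0.49), 0.00 for *sufu* (-0.41 to 0.42) and -0.01 for *gli-1* (-0.51 to 0.49), so a change of more than 1.43-fold in either direction lies outside the limma interval of each. In *ptc(RNAi)* the log2 fold changes were -0.27 for *smo*, 0.28 for *sufu* and 0.20 for *gli-1*, each without overlap. Of all contigs tested there 19.2% were lower and 17.2% higher without overlap. *gli-3* stayed under the minimum for a test, with 68.9 and 51.4 normalized reads in the control and 54.4 and 74.2 in *hh(RNAi)*, and its libraries overlapped. For *gli-2* a single read was found in the 4 libraries, below the limit of 3 reads that a count of 0 allows in a library, so its expression was not detectable at this depth. Of the 7 pathway contigs 5 were tested and 2 of these, *hh* and *ptc*, lay lower without overlap (40%, against 15.7% of all contigs), and 0 lay higher. Since the dsRNA matched *hh*, its place in this share follows from the design, and only *ptc* was lower without being targeted.

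**Figure D2:**
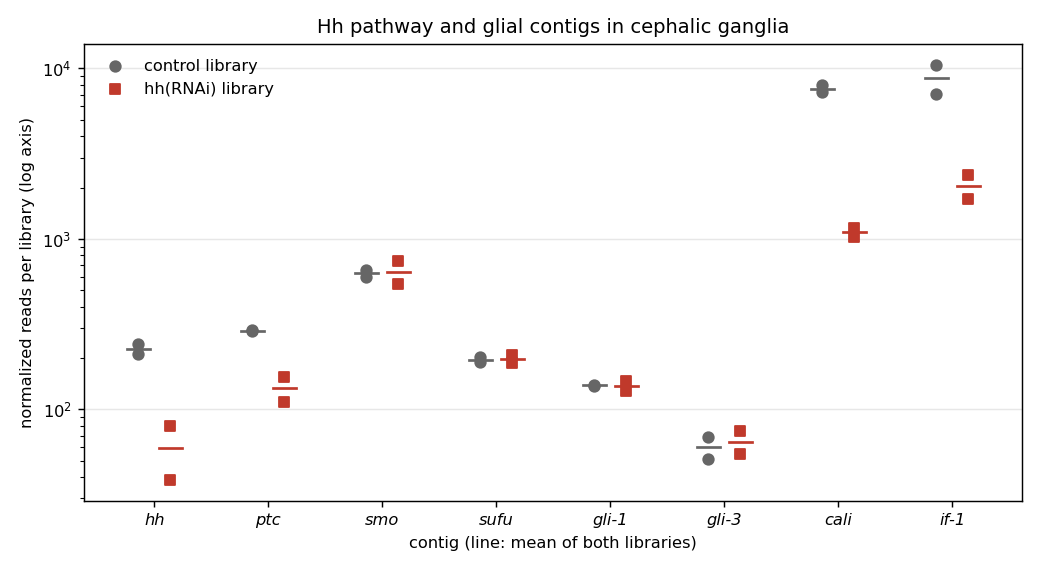
Normalized reads (log axis) of 6 Hh pathway contigs and of the glial contigs *cali* and *if-1* in each control library (grey circles) and each *hh(RNAi)* library (red squares), with lines at the group means. The red squares lie below the grey circles for *hh*, *ptc*, *cali* and *if-1* and mix with them for *smo*, *sufu*, *gli-1* and *gli-3*.

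*cali* (dd_Smed_v4_9961_0_1), a glial gene whose predicted protein resembles mouse protocadherin-19, was the contig that limma called. It had 7959 and 7240 normalized reads in the control and 1024 and 1161 in *hh(RNAi)*, so 14.4% of the control mean was left and the libraries of each group lay close together. The log2 fold change was -2.80 (standard error 0.15), a fall of 6.96-fold, with an adjusted p of 0.035 from limma. EdgeR gave an adjusted p of 0.0403, and without any single library the limma log2 fold change stayed between -2.89 and -2.71 and the contig stayed called. With libraries scaled to total reads the log2 fold change was -2.73, with an adjusted p of 0.0621 from limma. In *ptc(RNAi)* its level was 9504 and 8648 normalized reads, above both controls, and the log2 fold change was 0.26 (adjusted p = 0.824, limma). Of all contigs tested there 17.2% were higher without overlap.

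*if-1* (dd_Smed_v4_12254_0_1), which encodes a cytoplasmic intermediate filament protein of the same cells, had 10508 and 7033 normalized reads in the control and 1724 and 2381 in *hh(RNAi)*. The groups did not overlap, and 23.4% of the control mean was left. The control libraries differed more from each other than they did for *cali*. The log2 fold change of -2.08 (standard error 0.26, 95% interval -2.73 to -1.44) had an adjusted p of 0.595 from limma and 3.18e-12 from DESeq2. *if-1* and *cali* were 30.3-fold and 18.3-fold higher in control ganglia than in control heads, on the scale with 1 read added. In *ptc(RNAi)* *if-1* had 10997 and 8926 normalized reads, overlapping the control libraries.

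The study selected 12 contigs for a lower level in *hh(RNAi)*, *cali* and *if-1* among them, and used these same libraries to do so. Their lower level is therefore not independent evidence, and is given as a description. None of the 12 overlapped between groups, where 15.7% of all tested contigs were lower without overlap. The median log2 fold change was -1.66 and the values ran from -3.04 to -1.11. Limma called 1 of them (0.00823% of all contigs were called lower) and DESeq2 all 12 (0.321%). In *ptc(RNAi)*, with the same controls, 8 of the 12 lay above 0 and 4 below. There 7 were higher without overlap (17.2% of all contigs tested there) and 3 lower (19.2%), and limma called 3 higher (0.264%) and 0 lower (0.0743%). The study's criteria accepted a change in either comparison, so the *ptc(RNAi)* values of the 12 need not be free of the selection.

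Of the 12 contigs 2 were annotated as GLIPR1-like. dd_Smed_v4_7131_0_1, annotated as GLIPR1-like protein 1-like, a member of the cysteine-rich secretory protein family, had 988 and 827 normalized reads in the control and 80.0 and 147 in *hh(RNAi)*, with a log2 fold change of -3.04. A second contig of that annotation, dd_Smed_v4_433_0_1, had 2674 and 2428 against 400 and 738, a log2 fold change of -2.23. The third GLIPR1-like contig of the tables, dd_Smed_v4_1530_0_1, was selected in *ptc(RNAi)* and had 1305 and 566 against 532 and 331.4, so its groups were separated by little and its control libraries were more than 2-fold apart. In *ptc(RNAi)* the 3 contigs had log2 fold changes of 1.47, 1.39 and 1.73.

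dd_Smed_v4_3451_0_1, similar to human FAM115A, had 2925 and 2536 normalized reads in the control and 228 and 505 in *hh(RNAi)*, and dd_Smed_v4_6605_0_1, without a similar sequence in the tables, had 548 and 561 against 65.0 and 146. The *hh(RNAi)* libraries of these contigs, and of both GLIPR1-like contigs above, lay about 2-fold apart with library a the lower. Their log2 fold changes were -3.0 and -2.5. In *ptc(RNAi)* they were 1.14 and 1.62.

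Differences closer to 2-fold were found for contigs of various annotations. dd_Smed_v4_648_0_1, similar to tubulin alpha 1A, a building block of microtubules, had 1651 and 1496 normalized reads in the control and 527 and 856.05 in *hh(RNAi)*. dd_Smed_v4_821_0_1, similar to protein disulfide-isomerase A5, an enzyme of protein folding in the endoplasmic reticulum, had 2669 and 2207 against 849 and 1309. dd_Smed_v4_1206_0_1, similar to hematopoietic prostaglandin D synthase, had 7560 and 5760 against 3000 and 2998. The groups were apart in each of these, and the log2 fold changes were -1.23, -1.20 and -1.14. In *ptc(RNAi)* they were 1.18, 1.24 and -0.12.

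The other 3 contigs of the selection lay lower in *ptc(RNAi)* as well. *prog-1* (dd_Smed_v4_332_0_1), a marker of epidermal progenitors, had 7168 and 7530 normalized reads in the control, 4248 and 2309 in *hh(RNAi)* and 2843 and 5433 in *ptc(RNAi)*. dd_Smed_v4_69_0_2 had 3770 and 4087, then 2199 and 1255, then 1513 and 2604. dd_Smed_v4_16532_0_1 had 1760 and 1887, then 1011 and 705, then 514 and 119. In *hh(RNAi)* library b was the lower one for each of these contigs, whereas library a was the lower one for *cali*, *if-1*, dd_Smed_v4_7131_0_1 and dd_Smed_v4_433_0_1. The log2 fold changes in *hh(RNAi)* were -1.23, -1.24 and -1.11, and in *ptc(RNAi)* they were -0.90, -0.98 and -2.88. Both sets of values rest on the same control libraries.

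**Figure D3:**
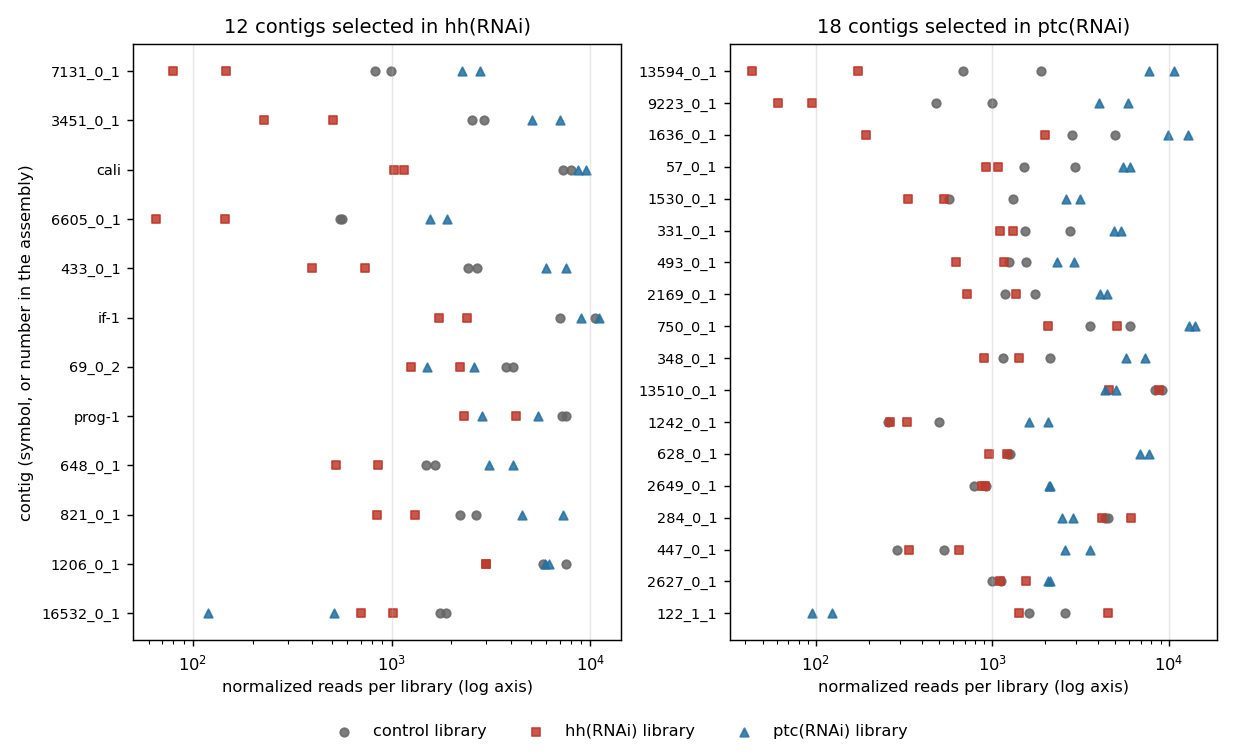
Normalized reads (log axis) in each control (grey circles), *hh(RNAi)* (red squares) and *ptc(RNAi)* library (blue triangles) for the 12 contigs that the study selected in *hh(RNAi)* and the 18 it selected in *ptc(RNAi)*, ordered by log2 fold change in *hh(RNAi)*. On the left all red squares lie below the grey circles. On the right they do so for 8 contigs. The *ptc(RNAi)* values were scaled in their own table.

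The remaining 18 contigs of the selection were chosen in *ptc(RNAi)*, where 15 were higher and 3 lower than in the control, all without overlap. Of all contigs tested there 17.2% were higher and 19.2% lower without overlap. In *hh(RNAi)* the median log2 fold change of the 18 was -0.50, with 13 below 0 and 5 above. In 8 of them *hh(RNAi)* was lower without overlap (44.4%, against 15.7% of all contigs) and in 0 higher. Limma called 0 of the 18 in *hh(RNAi)*, with 4 at an unadjusted p under 0.05 (2.27% of all contigs were). EdgeR called 0 of them and DESeq2 called 1 lower (0.0165% and 0.321% of all contigs). The direction in *ptc(RNAi)* was part of how these contigs were chosen, and the control libraries are shared.

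The lowest of them in *hh(RNAi)* were dd_Smed_v4_13594_0_1 and dd_Smed_v4_9223_0_1, for which the tables give no similar sequence. The former had 1886 and 687 normalized reads in the control, 43.7 and 174 in *hh(RNAi)* and 7747 and 10765 in *ptc(RNAi)*. The latter had 992 and 482, then 60.8 and 95.2, then 4020 and 5884. Control library a was more than 2-fold above library b for both. The log2 fold changes in *hh(RNAi)* were -3.69 and -3.17, with adjusted p-values of 1.0 and 0.595 from limma, and DESeq2 called dd_Smed_v4_9223_0_1. With single libraries left out they ran from -4.67 to -2.70 and from -3.69 to -2.65. dd_Smed_v4_1636_0_1, similar to zonadhesin, a sperm protein of mammals, had 2843 and 4974 against 193 and 1998. Its *hh(RNAi)* libraries lay 10.4-fold apart, and its log2 fold change of -2.59 was -4.28 without library b of *hh(RNAi)* and -0.91 without library a.

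Smaller differences without overlap were found for dd_Smed_v4_57_0_1, similar to a WAP four-disulfide core protein, a type of protease inhibitor, with 2946 and 1512 normalized reads in the control and 1081 and 928 in *hh(RNAi)*. They were also found for dd_Smed_v4_331_0_1 (2768 and 1530.1 against 1316 and 1111), for dd_Smed_v4_493_0_1, similar to the calcium-binding protein reticulocalbin-1 (1561 and 1243 against 1160 and 623), and for dd_Smed_v4_628_0_1, similar to SCO-spondin, a secreted glycoprotein (1223 and 1267 against 1220 and 961). In the last 2 the nearest libraries of the groups were less than 10% apart. By contrast dd_Smed_v4_122_1_1, similar to lysosomal acid lipase, overlapped, with 1624 and 2575 against 4557 and 1412, where library a of *hh(RNAi)* alone was high. In *ptc(RNAi)* this contig was at 95.2 and 124.

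The neuronal panel gave no calls. Of 70 contigs of the study's neuronal panel 60 were tested, limma, edgeR and DESeq2 each called 0, and 2 had an unadjusted p under 0.05 in limma (2.27% of all contigs did). The panel contigs ran from -0.83 to 0.31 on the log2 scale, 6 (10%) lay lower without overlap and 11 (18.3%) higher, where 15.7% and 10.7% of all contigs did. Classes within the panel differed in their medians, by amounts of the order of the difference between single libraries.

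The neuropeptides and prohormones, precursors of secreted peptide signals, had a median log2 fold change of -0.14, and 15 of 17 lay below 0. The mean of log2(normalized reads + 1) over this class was 13.03 and 12.96 in the control libraries, 13.05 in library a of *hh(RNAi)* and 12.59 in library b, so the low value came from 1 library. *npp-18* (neuropeptide precursor 18) was outside the range of the rest. It had 314 and 298 normalized reads in the control and 220 and 135 in *hh(RNAi)*, a log2 fold change of -0.83 (95% interval -1.47 to -0.18, adjusted p = 1.0 from limma). In *ptc(RNAi)* it had 309 and 456. *ppl-1*, a pyrokinin prohormone, also lay lower without overlap, with 3621 and 3333 against 3137 and 2295. *pc2*, which encodes the prohormone convertase that cuts these precursors, was on the other side with 37876 and 37754 against 39296 and 44389, and a log2 fold change of 0.14. In *ptc(RNAi)* the class had a median log2 fold change of -0.22, with 16 of 17 below 0. There 10 were lower without overlap, where 19.2% of all contigs tested were, and 0 higher. One of the 10 was *ppl-1*, with 2657 and 3008 normalized reads.

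The transcription factors of the panel had a median of 0.11, with 15 of the 18 tested above 0. In 7 of them (38.9%, against 10.7% of all contigs) both *hh(RNAi)* libraries lay above both controls. These were *soxB*, *lhx2/9*, *elf-1*, *pitx*, *pax6A*, *coe* and *e22/23*, with log2 fold changes from 0.31 down to 0.11. The largest of these differences, that of *soxB*, was 254 and 256 normalized reads against 322 and 310, or 1.24-fold, and limma gave it an unadjusted p of 0.0738 and an adjusted p of 1.0. For *lhx2/9* the log2 fold change was 0.28, and 0.11 for the summed reads of the 2 contigs of its component. *cas* (castor) lay lower, with 627.6 and 534 against 518 and 512. Relatives of *nkx2*, *nkx6* and *pax6* are expressed under Hedgehog control along the neural tube of vertebrates. Of their planarian counterparts *pax6A* lay higher without overlap, with 968 and 954 normalized reads in the control and 1026 and 1090 in *hh(RNAi)*, and the others overlapped. *nkx2* had 282 and 334 normalized reads in the control and 302 and 263 in *hh(RNAi)*, and *nkx6* had 147 and 134 against 200 and 134. *pax6B* was below the minimum, at 34.98 and 41.5 against 37.3 and 65.0. The 95% intervals of the log2 fold change ran from -0.54 to 0.29 for *nkx2* and from -0.42 to 0.85 for *nkx6*.

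Among enzymes and transporters of neurotransmitters, 8 contigs were tested and their median was 0.09. *gd*, glutamate decarboxylase, which makes GABA, had 1094 and 941 normalized reads in the control and 715 and 777 in *hh(RNAi)*, and 902 and 1033 in *ptc(RNAi)*. Its log2 fold change in *hh(RNAi)* was -0.44 (95% interval -0.81 to -0.08, adjusted p = 1.0 from limma). *tbh*, tyramine beta-hydroxylase, an enzyme of octopamine synthesis, had 2464 and 2178 against 2036 and 1737. Both lay lower without overlap (25% of the class, against 15.7% of all contigs), and the other 6 overlapped, *chat* of cholinergic neurons among them (13222 and 14439 against 14130 and 19255). Synaptic vesicle and release proteins had a median of 0.10, with *syt11* and *unc-13* higher without overlap by 0.10 and 0.19 on the log2 scale (28.6% of the class, against 10.7%). Among channels, pumps and other neuronal proteins the median was 0.07, and *tau*, which binds microtubules, lay lower by 0.12 without overlap (16.7%, against 15.7%). For reads summed over the contigs of 1 component, the log2 fold change was -0.02 for *tau* (3 contigs) and 0.19 for *unc-13* (5 contigs). Guidance and positional signals had a median of 0.15 over 4 tested contigs, and *ndl-3* lay higher without overlap at 0.23 (25%, against 10.7%). *netrin 1*, an axon guidance signal of the marker table, had 591 and 506 normalized reads against 632 and 632. Its log2 fold change was 0.21, and 0.08 for the summed reads of the 2 contigs of its component.

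**Figure D4:**
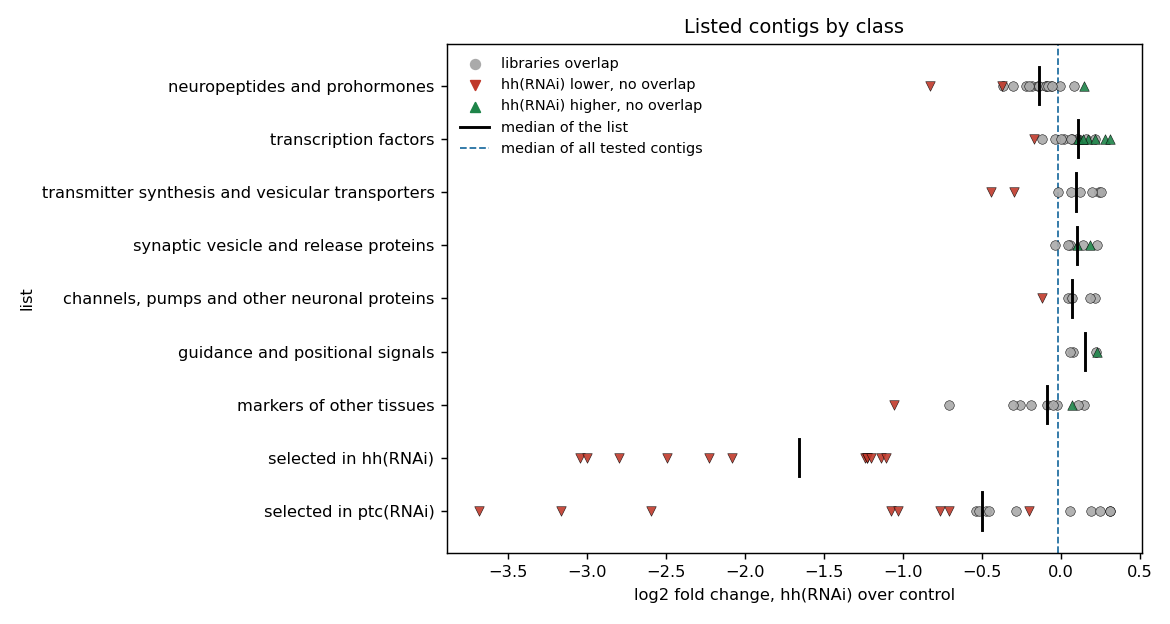
Log2 fold change of *hh(RNAi)* over control for each tested contig of the 6 classes of the neuronal panel, of markers of other tissues and of the study's selections. Triangles mark contigs whose libraries did not overlap between groups (red, lower; green, higher), black lines the list medians and the dashed line the median of all contigs, -0.02. The panel classes lie between -0.83 and 0.31, while the contigs selected in *hh(RNAi)* lie between -3.04 and -1.11.

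Markers of tissues around the ganglia were read in the same libraries. Summed over 20 such markers, 21162 and 16961 normalized reads were found in the control and 17650 and 14921 in *hh(RNAi)*, so the groups overlapped, and none of the 20 was at 0 in every library. Of the 11 tested, limma called 0, and 1 lay lower without overlap and 1 higher (9.09% each, against 15.7% and 10.7% of all contigs). *smedwi-1* (dd_Smed_v4_659_0_1), the Piwi gene that marks neoblasts, the planarian stem cells, had 1791 and 1365 normalized reads in the control and 740 and 760 in *hh(RNAi)*. The *hh(RNAi)* libraries were close together below the controls, with 47.5% of the control mean left. The log2 fold change was -1.06 (95% interval -1.49 to -0.63), with an adjusted p of 0.88 from limma and 0.000531 from DESeq2. In *ptc(RNAi)* *smedwi-1* had 2885 and 4329, a log2 fold change of 1.18.

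The second neoblast gene, *smedwi-2* (dd_Smed_v4_756_0_1), had 6725 and 5000 normalized reads in the control and 4453 and 5253 in *hh(RNAi)*, which overlapped, with a log2 fold change of -0.26. In *ptc(RNAi)* it had 8623 and 8417. *agat-1*, a marker of late epidermal progenitors, had 1188 and 760 against 936 and 359, where library b of *hh(RNAi)* was low and the groups overlapped. The collagen contig of muscle had 803 and 481 against 590 and 428. *mag-1* of the marginal adhesive glands had 449 and 427 in the control, 898 in library a of *hh(RNAi)* and 206 in library b. In *ptc(RNAi)* *mag-1* had 1141 and 1217, and limma called it higher (adjusted p = 0.0109), as it did 0.264% of all contigs tested there. The intestinal marker *mboat7* lay higher by 0.07 on the log2 scale without overlap. Of the 51 contigs more than 2-fold higher by the group means, 45 were more than 2-fold lower in control ganglia than in control heads. Of the 133 lower ones 53 were so and 45 were more than 2-fold higher in ganglia, against 1568 and 4831 of all 12153. Among the 168 tested contigs more than 32-fold higher in ganglia, 23 (13.7%) belonged to these lower ones. In 18 of the 23 control library b was more than 2-fold above library a, and 19 lay below 0 in *ptc(RNAi)*. How far tissue around the ganglia contributed to the differences in other contigs was not tested. *gapdh*, a gene of broad expression, had 41664 and 36023 against 35928 and 33735.

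**Figure D5:**
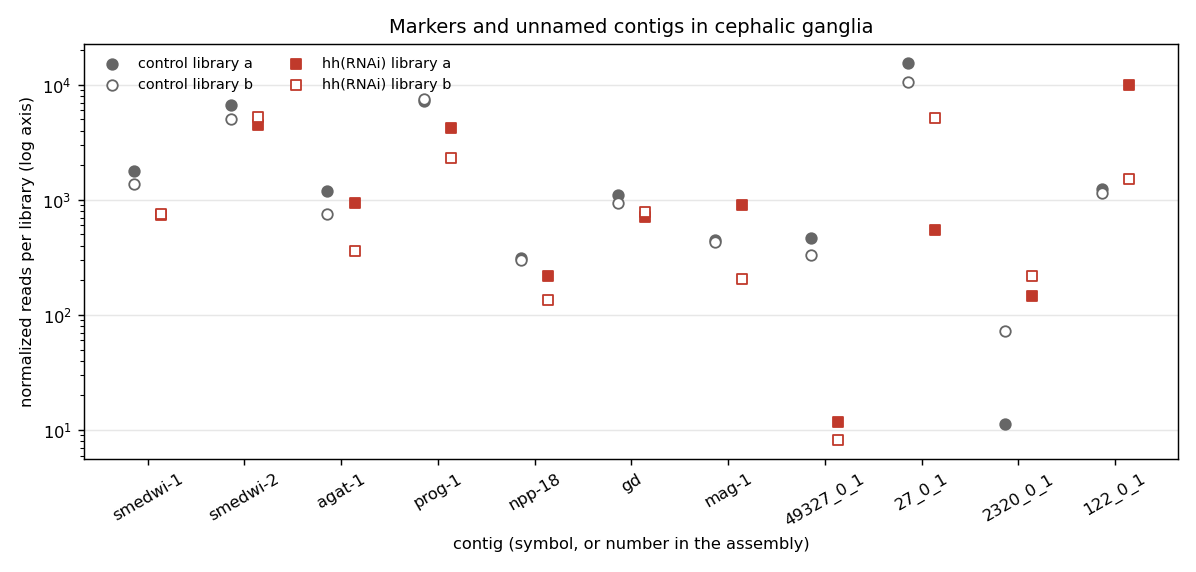
Normalized reads (log axis) of markers and of contigs without a name in control libraries a and b (grey circles, filled and open) and in *hh(RNAi)* libraries a and b (red squares, filled and open). *smedwi-1* and dd_Smed_v4_49327_0_1 have *hh(RNAi)* libraries close together and below both controls, while the *hh(RNAi)* libraries of *mag-1*, dd_Smed_v4_27_0_1 and dd_Smed_v4_122_0_1 lie several-fold apart.

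Some of the widest separations belonged to contigs that the study's tables do not name. dd_Smed_v4_49327_0_1 had the lowest log2 fold change of all tested contigs, -5.19 (standard error 0.39). It held 451 and 338 reads in the control and 11 and 9 in *hh(RNAi)*, or 464 and 334 normalized reads against 11.7 and 8.24, so 2.503% of the control mean was left. Limma gave an adjusted p of 0.128, edgeR one of 0.0403 and DESeq2 one of 6.46e-28. The limma fit over the 6 ganglion libraries gave one of 0.00382. In *ptc(RNAi)* this contig had 498 and 446 normalized reads, and in control ganglia it was 66.9-fold above control heads. The second of these, dd_Smed_v4_27_0_1, had 15506 and 10556 against 543 and 5094, so its *hh(RNAi)* libraries lay 9.39-fold apart. Its log2 fold change of -2.94 was -4.56 without library b of *hh(RNAi)* and -1.33 without library a.

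The contigs with the largest log2 fold changes above 0 and no overlap were less even. dd_Smed_v4_2320_0_1 had 11.3 and 72.1 normalized reads in the control and 145 and 217 in *hh(RNAi)*, and the control libraries themselves differed 6.37-fold. dd_Smed_v4_122_0_1 had 1241 and 1144 against 9967 and 1532. Without library a of *hh(RNAi)* its log2 fold change of 1.71 was 0.36. Limma gave both an adjusted p of 1.0. In *ptc(RNAi)* dd_Smed_v4_122_0_1 had 175 and 11298 normalized reads, the widest pair of the values given here. It carries the same assembly number as dd_Smed_v4_122_1_1, the lysosomal acid lipase contig above, which was also highest in library a of *hh(RNAi)*. If these contigs share sequence, the division of reads between them is uncertain, so their high values need not be independent. Their summed reads gave a log2 fold change above 0 but smaller than 1.71.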

How the data were processed

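RNA-seq of dissected ganglia was analysed from 3 deposited tables of 38634 contigs. The authors mapped reads with Bowtie2 to the Dresden transcriptome, trimming 5 bases at the 5′ end and keeping the best single alignment, and counted them with Samtools. For comparing groups their methods name DESeq2 (versions not given in the sources used here). The column names of the deposited means are those that DESeq writes, so the DESeq2 fit given here need not repeat the authors' test. As deposited, the values are a signal, the mean over a group of reads divided by size factors, computed by the authors. The columns of fold changes and p-values hold the authors' comparisons and were not used, and 0 columns of per-sample values were left without a sample.

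Since a group mean adds whole reads of 2 libraries, each in steps of its own size, the reads of each library could be solved for 100% of the means above 0. Control reads solved from both RNAi tables were identical in all 38634 contigs, and the method was tested on simulated data. Total reads were 12260728 and 12219750 in the control and 11479783 and 12368424 in *hh(RNAi)*. An interval covers the spread between libraries only.

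Contigs averaging at least 100 normalized reads were tested (the averages next to this limit were 100.02 and 99.99). The study's limit in RPKM needs contig lengths, which were not used here. Limma 3.58.1 in R 4.3.3 was fitted to log2(normalized reads + 1) with a mean-variance trend and Benjamini-Hochberg adjustment over all tested contigs, and a call needed more than 2-fold and an adjusted p below 0.05. On this scale changes of low contigs are understated. An exact permutation test of 2 against 2 libraries cannot go below a two-sided p of 0.333, so none was run. EdgeR 4.0.16, DESeq2 1.42.0, other scalings, minimums and pseudocounts, summed contigs and leaving out each library were the alternatives. Python 3.11.15 and matplotlib 3.10.9 made the tables and figures.

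Members and lists were chosen with earlier results of these data known. Contig names came from the study's tables. Named were the pathway contigs, the study's selection in *hh(RNAi)*, listed contigs without overlap, outside their class or named by the study, listed contigs called by any tool, and the 2 largest rises and falls without overlap among unlisted contigs. No sequences were used.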

Additional observations from a re-analysis of the deposited data

How the results depend on the processing

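No paired analysis was possible because the deposited group means carry no replicate numbers. Limma called 1 contig lower and 0 higher. It called 2 lower without an expression minimum, 2 in 1 fit over the 6 ganglion libraries and 0 with scaling to total reads, while edgeR called 2 and DESeq2 39. Without a single library 2 to 8 were called lower and 0 to 5 higher (called lower: 2 without control a, 5 without control b, 6 without *hh(RNAi)* a and 8 without *hh(RNAi)* b), a fit in which the library left alone takes the spread of the intact pair. The counts beyond 2-fold were 133 lower and 51 higher, 39 and 9 at an average of at least 1000 (where fewer contigs were counted), and 114 to 248 and 44 to 129 with each library left out. Among these, leaving out library a of *hh(RNAi)* (248 lower, 111 higher), its library b (89 higher) or control library b (129 higher) moved a count by over 1.5 times. The median of all contigs was 0.049 with scaling to total reads and -0.060 to 0.0030 with libraries left out. That of the panel was 0.13 and -0.0059 to 0.11. That of the contigs selected in *hh(RNAi)* was -1.23 at an average of at least 1000 and -1.95 to -1.55, that of those selected in *ptc(RNAi)* -0.85 to -0.24 and that of other tissues -0.36 to -0.013. Of 58 named contigs 51 kept their sign under every one of 14 alternatives of the fit that covered them. The minimum of 1000 covered 29 of the 58. The others were *smo* (-0.21 to 0.24 with libraries left out), *sufu* (-0.0047 with TMM, -0.0037 with edgeR, -0.00040 with the 6-library fit, -0.073 to 0.080 left out), *gli-1* (0.054 with total reads, -0.11 to 0.089), *mag-1* (0.044 with total reads, 0.33 with edgeR and DESeq2, -1.08 to 1.04), *nkx6* (-0.072 to 0.51), collagen (-0.68 to 0.062) and dd_Smed_v4_122_1_1 (-0.53 to 1.16), and the cause was not tested. Depth limits *gli-2* and *gli-3*, which stayed under the minimum.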

Other observations

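The 39 contigs that DESeq2 called lower (0.321% of those tested) did not overlap between groups, where 15.7% of all tested contigs were lower without overlap. The call and the overlap were read from the same libraries, so this is a description. Of the 39, 15 are in the lists, namely the 12 selected in *hh(RNAi)*, *hh*, *smedwi-1* and dd_Smed_v4_9223_0_1. The study selected the 12 on these libraries, so their calls are not independent evidence.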
